A study of Elaeis guineensis with 9 samples.

Results

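Leaves of high-yielding oil palms were compared with leaves of low-yielding oil palms by RNA sequencing. The comparison used 6 of the 9 libraries of the series, 3 from high-yield and 3 from low-yield palms, taken by the yield class in the labels. Oil palm, Elaeis guineensis, is the tropical palm whose fruit gives palm oil, and Tenera is its thin-shelled commercial hybrid fruit form. All groups were Tenera palms 7 years old, grown in the same field, with yield recorded over 4 years, and the tissue was leaf of frond 17. The high-yield, medium-yield and low-yield classes each held 1 library from the crosses Deli x LaMe, Deli x Yangambi and Deli x SP540, called LaMe, Yangambi and SP540 from here on. A high-yield and a low-yield library of the same cross form a pair. The labels do not say how many palms gave a library, so a p-value reflects only how far these libraries varied. No extraction or sequencing batch is labelled, and a batch that followed the yield classes could not be told apart from them.

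The leaf is the source organ that fixes carbon and exports sugar, and the developing bunch is the main sink for that sugar. The fronds of the crown are numbered by age, and frond 17 is the one commonly sampled to judge the mineral nutrition of a palm. Oil itself is laid down in the fruit, so leaf transcripts describe the supplying tissue and not the tissue that stores the oil.

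Transcript abundance was given in TPM, a measure of relative transcript abundance that corrects for transcript length and sums to the same total in every library. Of the 51490 RefSeq transcript rows, 30576 had at least 1 TPM in at least 3 of the 9 libraries and were tested. These were 27021 mRNA rows and 3555 non-coding rows. A gene identifier could be given to 20730 of them, which belonged to 15230 genes. Most of these genes carry only a LOC identifier, for which no product is annotated in the sources used here, so no role is given for them.

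The composition of the libraries did not differ between yield classes beyond their spread. High-yield libraries held 26849 ± 407 rows at 1 TPM or more and low-yield libraries 26755 ± 307 (SD, n = 3 each; exact permutation test within populations, two-sided p = 0.75). The 10 most abundant rows took 13.9 ± 0.853% of TPM in high-yield and 14.3 ± 0.603% in low-yield libraries (exact permutation p = 0.5). Non-coding rows took 6.32 ± 0.372% in high-yield and 5.95 ± 0.448% in low-yield libraries (exact permutation p = 0.5). Adjusted over the 4 measures of composition tested, each p was 0.75, and 3 pairs cannot give a p below 0.25. Depth is unknown, because TPM does not keep it.

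The labelled tissue was checked against genes with a name. Catalase CAT2, an enzyme that breaks down hydrogen peroxide, was among the 10 most abundant rows, at 6399, 3693 and 4469 TPM in the high-yield and 5738, 3458 and 7189 TPM in the low-yield LaMe, Yangambi and SP540 libraries. The other intended leaf markers are known by product and could not be matched. The flower genes of the MADS-box family AG2, AGL2-2, AGL2-3, AGL2-5, GLO1, GLO2 and SQUA1 and the embryo gene BBM did not reach 1 TPM in enough libraries to be tested. Together with CHI2 and LIP1 they made 10 genes with no tested row, and none passed 0.77 TPM in any high-yield or low-yield library. DEF1, a MADS-box gene of the petal and stamen class, was present at a low level of 3.9, 3.29 and 6.23 TPM in high-yield and 4.08, 2.68 and 4.57 TPM in low-yield libraries.

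No transcript row differed between high and low yield after adjustment. A limma model with population and yield class, fitted to log2(TPM + 1) of all 9 libraries, called 0 of 30576 rows at a Benjamini-Hochberg adjusted p under 0.05, which is 0% of the rows. The lowest adjusted p was 0.987, shared by 11835 rows. At an unadjusted p under 0.05 there were 1424 rows, 4.66% of those tested, of which 793 (2.59%) had higher and 631 (2.06%) lower values in high yield. The median half-width of the 95% interval of a difference was 0.81 on the log2 scale, and it lay between 0.37 and 1.63 from the 10th to the 90th percentile of rows. These widths are for single rows and take no account of the adjustment. Differences well inside them were not detectable with 3 libraries a class, and larger ones could also go uncalled. The row XM_010907930.2, with a difference of 2.81 (SE 0.319), had a limma adjusted p of 0.987.

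**Figure D1:**
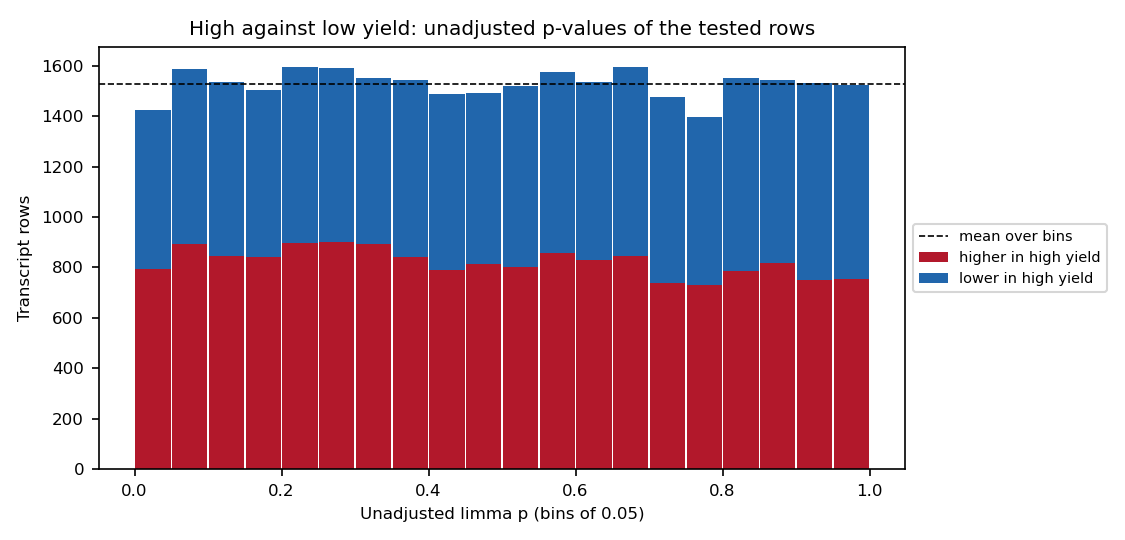
Number of transcript rows (vertical axis) in each bin of 0.05 of the unadjusted limma p (horizontal axis) for high against low yield, with rows higher in high yield in red and rows lower in high yield in blue; 8 rows with a difference of exactly 0 are left out. The bins hold between 1397 and 1595 rows around a mean of 1528 (dashed line), and the bin nearest 0 holds 1424.

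The histogram of p-values shows no pile of rows near 0. The same rows were also sorted by whether the classes overlapped, as a description. All 3 high-yield libraries were above all 3 low-yield libraries in 1470 rows (4.81%) and below them in 982 rows (3.21%), in all 2452 rows (8.02%). The rows that lay above had a median difference of 0.52 on the log2 scale, and those that lay below had a median of −0.71, beside 0.03 over all rows tested. Non-coding rows made up 9.39% of the rows above and 14.1% of the rows below, beside 11.6% of all rows tested. Of the rows above, 18 passed the filter on low values only through the 3 high-yield libraries, and of the rows below, 20 passed it only through the 3 low-yield libraries.

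When direction alone was followed, high yield exceeded low yield in all 3 pairs in 4248 rows (13.9%) and was below it in all 3 pairs in 3023 rows (9.89%). A difference of at least 2-fold in every pair was found in 98 rows upward (0.321%) and 102 rows downward (0.334%). These folds are on the log2(TPM + 1) scale, which understates the change of rows at low TPM.

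The rows described next had the smallest unadjusted p in each direction among rows that averaged 5 TPM or more and went one way in all 3 pairs. There were 12 higher and 12 lower, 10 with a gene and 2 without in each direction, and every one had an adjusted p of 0.987, so none passed the test. In the higher set, values did not overlap between classes in 10 of 12 rows, and differences ran between 0.63 and 1.62. In the lower set, they did not overlap in 11 of 12 rows, and differences ran between −0.67 and −2.24, leaving out LOC114914809, which was listed at 0 in all high-yield libraries. This order by p chose them, and their separation is given as a description.

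Among the higher rows, LOC105033645 was the most abundant of those without overlap. It had 356, 241 and 342 TPM in the high-yield and 121, 131 and 105 TPM in the low-yield LaMe, Yangambi and SP540 libraries, a mean of 313 ± 63.1 against 119 ± 13.3 TPM (SD, n = 3 each). The lowest high-yield library was thus well above the highest low-yield library, and the log2 difference was 1.37 (SE 0.223, limma, adjusted p = 0.987). It is the only row of its gene, and the medium-yield libraries averaged 171 TPM. In bulk leaf RNA, more cells of a type and more RNA per cell cannot be told apart.

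LOC105044727 had 180.4, 162 and 163 TPM in high-yield libraries and 96.3, 111 and 90.9 TPM in low-yield libraries, with a log2 difference of 0.76. LOC105060421 had 164, 152 and 186 TPM in high-yield libraries and 118, 105 and 99.1 TPM in low-yield libraries, with a difference of 0.63. LOC105061149 had 127, 96.1 and 115 TPM in high-yield libraries and 74.3, 51.5 and 88.7 TPM in low-yield libraries, with a difference of 0.67. In these 3 genes, each with 1 row, the classes were apart in every pair and did not overlap.

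The row XM_010920733.3 of LOC105043254 had 23.9, 36.1 and 28.8 TPM in high-yield libraries and 6.25, 15.7 and 15 TPM in low-yield libraries. The LaMe pair differed most, by 1.78, and the SP540 pair least, by 0.90, with a fitted difference of 1.28 (SE 0.205). This row held 18.5% of the TPM of its gene, which has 3 rows. The other higher rows with a gene and no overlap were LOC105051468 (difference 0.81), LOC105036058 (0.90), LOC105059076 (1.37) and LOC105045120 (1.62). The rows of LOC105036058 and LOC105059076 held 62.7 and 47.2% of the TPM of their genes.

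LOC105045120 shows how a row and its gene can part. Its row XM_029266498.1 had 15.5, 14.0 and 12.9 TPM in high-yield libraries and 4.20, 4.24 and 3.30 TPM in low-yield libraries, with little spread in either class. It held 3.49% of the TPM of the gene, and the gene's summed TPM differed by −0.070. Reads shared by near-identical rows of 1 gene are divided between them by estimation, so the value of a single row is less certain than the gene's sum.

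A pair of higher rows overlapped between classes, and in both the Yangambi libraries were the lowest of their class. LOC105058713 had 359, 222 and 338 TPM in high-yield libraries and 217, 104 and 227 TPM in low-yield libraries, with a difference of 0.80 (SE 0.140). Here the high-yield Yangambi library was below the low-yield SP540 library, while each pair on its own was higher in high yield. The row XM_029262294.1, which has no gene identifier, had 268, 66.5 and 383 TPM in high-yield libraries and 86.7, 30.9 and 99.0 TPM in low-yield libraries, with a difference of 1.55 (SE 0.219) and the smallest p of the set, 0.000196. Each of its pairs was nevertheless higher in high yield.

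The second row without a gene, XM_029264972.1, had 14.1, 13.7 and 23.3 TPM in high-yield libraries and 6.16, 3.95 and 9.64 TPM in low-yield libraries. It was the 1 row of the 12 whose medium-yield mean, 5.50 TPM, did not lie between the other means of 17 TPM in the high-yield class and 6.59 TPM in low yield. In 8 of the 12 higher rows the medium-yield mean was nearer to the low-yield mean.

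**Figure D2:**
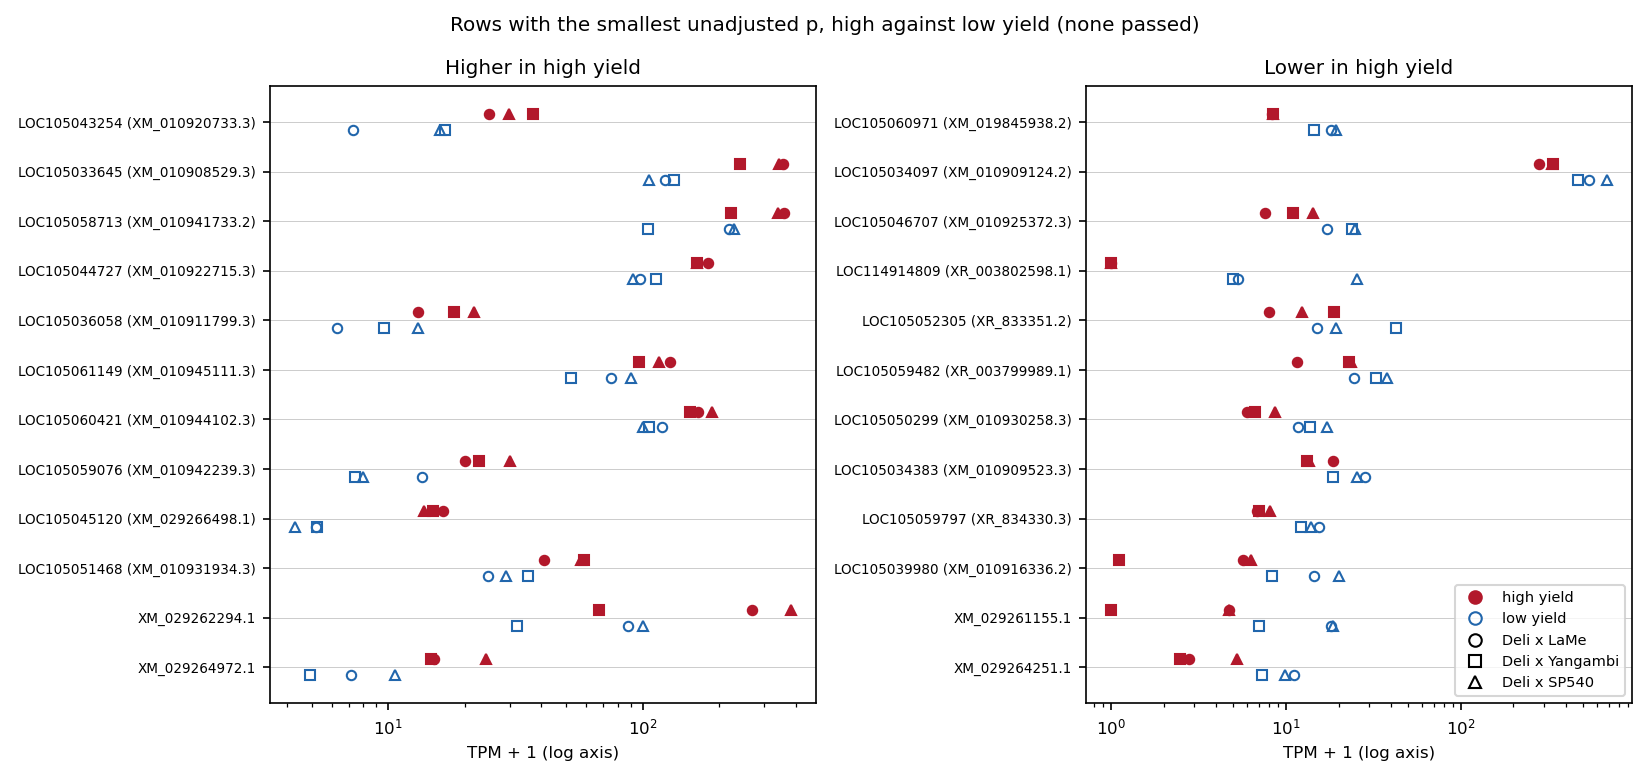
TPM + 1 on a log axis (horizontal) of 24 rows that averaged 5 TPM or more, went one way in all pairs and had the smallest unadjusted p among such rows, counting each gene once, 12 higher in high yield at left and 12 lower at right, with high-yield libraries filled red above low-yield libraries open blue; circles are LaMe, squares Yangambi and triangles SP540. No row passed the adjusted test; filled and open markers do not overlap in 10 rows at left and 11 at right, and LOC114914809 lies at 0 TPM in all 3 high-yield libraries.

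Among the lower rows, LOC105034097 was by far the most abundant. It had 279, 337 and 329.8 TPM in high-yield libraries and 542, 469 and 686 TPM in low-yield libraries, a mean of 315 ± 31.9 against 565 ± 111 TPM (SD, n = 3 each). The classes did not overlap, the log2 difference was −0.83 (SE 0.141, limma, adjusted p = 0.987), and the medium-yield mean of 476 TPM lay between. The gene has 1 row.

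LOC105060971 had almost equal levels in the high-yield libraries. Its row XM_019845938.2 had 7.28, 7.47 and 7.39 TPM in high-yield libraries and 17.2, 13.6 and 18.4 TPM in low-yield libraries, with a difference of −1.04 (SE 0.168). The 3 medium-yield libraries, at 17.1, 16.2 and 16.2 TPM, lay with low yield and apart from high yield. The row held 48.2% of the TPM of its gene.

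The named row of LOC105046707 had 6.64, 9.96 and 13.4 TPM in high-yield libraries and 16.3, 23.0 and 23.8 TPM in low-yield libraries, with a difference of −1.03. It held 71% of the gene's TPM. LOC105050299 had 4.96, 5.67 and 7.64 TPM in high-yield libraries and 10.7, 12.8 and 16.3 TPM in low-yield libraries for a row with 45.2% of the gene's TPM, with a difference of −1.01. The named row of LOC105034383 held 56.5% of its gene's TPM. It had 17.6, 12.3 and 12.5 TPM in high-yield libraries and 27.4, 17.6 and 24.4 TPM in low-yield libraries, with a difference of −0.67. In the last of these the high-yield LaMe and the low-yield Yangambi library nearly met, and the other rows were apart.

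LOC105039980, in its row XM_010916336.2, had 4.66, 0.106 and 5.34 TPM in high-yield libraries and 13.5, 7.36 and 19.1 TPM in low-yield libraries, with a difference of −1.98 (SE 0.453). The Yangambi pair carried the widest gap, −2.92. This row held 24.9% of the TPM of its gene. XM_029261155.1, a row with no gene identifier, showed a like shape, with 3.71, 0 and 3.75 TPM in high-yield libraries and 17.1, 6.0 and 17.7 TPM in low-yield libraries. Its medium-yield libraries, at 15.9, 11.8 and 14.5 TPM, were all above the high-yield ones. XM_029264251.1, also without a gene, averaged 2.52 ± 1.5 TPM in the high-yield class and 8.47 ± 1.96 TPM in low yield (SD, n = 3 each).

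Non-coding rows were 4 of the 12 lower and 0 of the 12 higher rows, beside 11.6% of all rows tested. Among all rows without overlap, 138 in each direction were non-coding, 14.1% of those below and 9.39% of those above. The share among rows that met the rule for naming was not counted. LOC105059797 had 5.85, 5.98 and 7.15 TPM in high-yield libraries and 14.6, 11.3 and 13.0 TPM in low-yield libraries, with a difference of −0.92. LOC105059482 had a difference of −0.76 in a row that held 15.8% of its gene's TPM, and LOC105052305 had −0.91 with classes that overlapped and its highest level in Yangambi. LOC114914809 was listed at 0 in all 3 high-yield and all 3 medium-yield libraries and had 4.35, 3.98 and 24.6 TPM in the low-yield LaMe, Yangambi and SP540 libraries. No fold is given for it, and it passed the filter on low values only through the 3 low-yield libraries.

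Rows that were present in one class and nearly absent from the other in every pair were sought after the values had been seen, with at least 5 TPM in one library and under 1 TPM in the other. There was 1 such row present in high yield and 2 present in low yield. XM_010907930.2 had 8.51, 8.08 and 10.4 TPM in high-yield libraries and at most 0.733 TPM in low-yield libraries, with medium-yield libraries at 4.28, 7.11 and 4.44 TPM. Its log2 difference was 2.81 (SE 0.319, limma, adjusted p = 0.987), and the 3 classes were stepwise apart.

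The opposite rows were uneven in the medium class. LOC105042276, in its row XM_010919413.2, had at most 0.244 TPM in high-yield libraries and 10.2, 6.48 and 8.82 TPM in low-yield libraries. XM_029260468.1 was listed at 0 in all high-yield libraries and had 11.2, 5.63 and 14.1 TPM in low-yield libraries. In the medium class, each of these rows had at least 1 library above 5 TPM and at least 1 listed at 0.

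Genes with at least 2 tested rows allowed a look at isoforms. Of 3716 such genes, 75 had 2 or more rows whose classes did not overlap, beside 8.02% of all single rows tested. In 55 of these 75 genes (1.48% of the 3716) the rows went in opposite directions. No comparison share for opposite directions was counted, so the 55 genes are a description. In 13 of the 55 genes both rows averaged at least 5 TPM, and the 6 whose weaker row had the smallest unadjusted p are described, chosen after the values were seen. The choice of rows that separate in opposite directions also fixes that the share held by the higher row separates where a gene has 2 rows, so the shares are given as a description. The summed TPM of each of the 6 genes overlapped between classes.

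In LOC105059076, the row XM_010942239.3 had 19.1, 21.8 and 29.2 TPM in high-yield libraries and 12.6, 6.39 and 6.96 TPM in low-yield libraries. Its other row, XM_010942238.3, had 11.2, 12.6 and 11.9 TPM in high-yield libraries and 14.7, 34.8 and 22.3 TPM in low-yield libraries, with a difference of −0.87 (SE 0.211). The first row therefore held 63.1, 63.3 and 71.1% of the gene in high yield, against 46.2, 15.5 and 23.8% in low yield. The sum of both rows was 35.2 ± 5.44 TPM in the high-yield class and 32.6 ± 7.52 TPM in low yield (SD, n = 3 each).

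LOC105032429 was the most abundant of the 6 in the high-yield class. Its higher row held 88.7, 88.8 and 88.4% of the gene in high-yield libraries and 79.1, 83.7 and 68.7% in low-yield libraries, on sums of 125 ± 7.5 TPM in the high-yield class and 109 ± 11.9 TPM in low yield. The 3 high-yield shares lay within a narrow band that no low-yield library reached. LOC105050755 showed 84.8, 79.0 and 85.8% in high-yield libraries and 71.3, 65.3 and 67.4% in low-yield libraries.

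LOC105034513 showed 73.4, 76.3 and 73.9% in high-yield libraries and 26.6, 57.7 and 63.0% in low-yield libraries, where LaMe stood lowest. LOC105049458 showed 29.2, 36.6 and 41.3% in high-yield libraries and 16.5, 7.97 and 17.0% in low-yield libraries. LOC105045030 showed 22.2, 16.4 and 25.8% in high-yield libraries and 16.2, 7.57 and 11.4% in low-yield libraries, with the high-yield Yangambi and low-yield LaMe libraries almost equal. None of the 12 rows passed the adjusted test, and the split of reads between rows of 1 gene is an estimate.

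**Figure D3:**
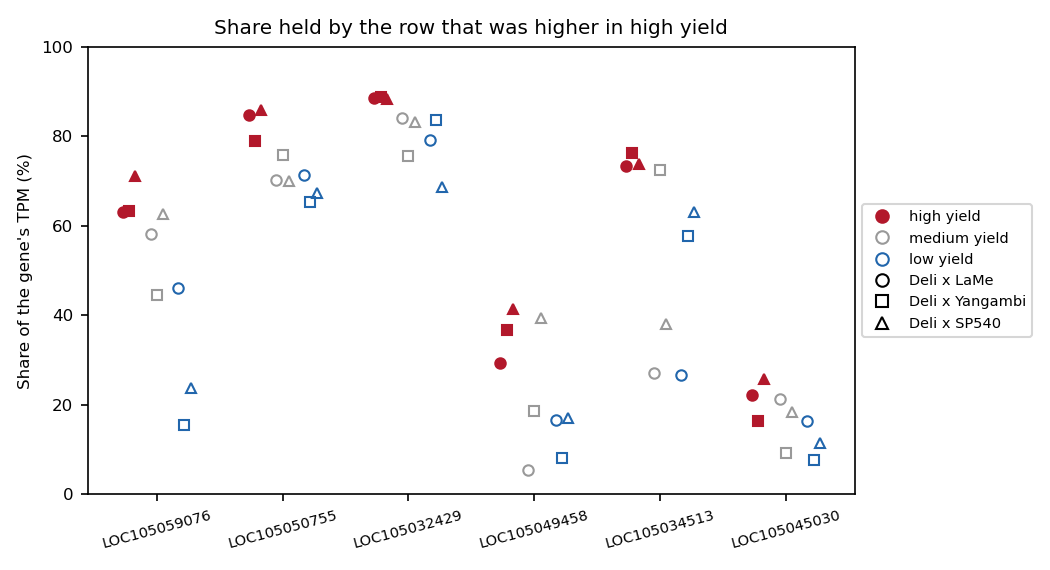
Share of each gene's TPM, in percent (vertical axis), held by the row that was higher in high yield, for 6 genes chosen after their values were seen; filled red markers are high-yield, open grey medium-yield and open blue low-yield libraries, with circles for LaMe, squares for Yangambi and triangles for SP540. The red markers lie above the blue ones in each of the 6 genes, which the choice of genes fixes where a gene has 2 rows, and the plot shows the levels.

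The 10 most abundant rows of the leaf had fitted differences under 0.5 in size. LOC105041203, the most abundant row, had 25728, 28412 and 29978 TPM in high-yield libraries and 27689, 30069 and 26151 TPM in low-yield libraries, with a difference of 0.0031 (SE 0.105). LOC105046370, in its main row XM_010924937.3, averaged 20268 ± 1624 TPM in the high-yield class and 20727 ± 3210 TPM in low yield (SD, n = 3 each). The 10 differences lay between −0.28 for LOC105033414 and 0.34 for LOC105047188. The classes overlapped in each of the 10 rows, while LOC105047188 and LOC105032174 were higher in high yield in all 3 pairs. Over all rows tested, 8.02% did not overlap and 13.9% were higher in all 3 pairs. The counts in 10 rows therefore show no trait particular to abundant rows. LOC105047188 had an unadjusted p of 0.0441 and an adjusted p of 0.987.

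The genes that carry a name in the gene table, by symbol or synonym, gave a set not picked for how they moved. They were 31 genes with 41 rows, of which 25 rows of 21 genes were tested. None of the 25 rows was called, none had an unadjusted p under 0.05, and none had classes that did not overlap. Over all rows tested these shares were 0, 4.66 and 8.02%, so the counts show no trait particular to the named genes. Values were above 0 in 11 and below 0 in 14, with a median difference of −0.04 beside 0.03 over all rows. All 3 pairs pointed the same way in 2 rows upward and 4 rows downward, beside 13.9 and 9.89% of all rows tested. The lowest unadjusted limma p among the 25 rows was 0.058.

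Of the antioxidant enzymes, manganese superoxide dismutase MnSOD had that lowest p. It had 209, 103 and 199 TPM in high-yield libraries and 104, 76.1 and 100.3 TPM in low-yield libraries, with a difference of 0.81 (SE 0.356, limma, adjusted p = 0.987). All 3 pairs were higher in high yield, but the high-yield Yangambi library lay below the low-yield LaMe library. CAT2 averaged 4854 ± 1393 TPM in the high-yield class and 5462 ± 1881 TPM in low yield (SD, n = 3 each), with a difference of −0.14 (SE 0.188).

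For lipid and isoprenoid synthesis the set held GPAT and dxs. GPAT, an acyltransferase that starts glycerolipid assembly on glycerol phosphate, had 97.0, 129.7 and 128 TPM in high-yield libraries and 126, 103 and 133 TPM in low-yield libraries. Its difference was −0.04 (SE 0.146), with the pairs on both sides of 0. The more abundant row of dxs, the entry enzyme of the plastid isoprenoid pathway, had 12.1, 1.95 and 11.6 TPM in high-yield libraries and 0.0547, 4.84 and 4.92 TPM in low-yield libraries. It was higher in high yield in LaMe and SP540 and lower in Yangambi, and its difference of 1.24 had an SE of 0.779.

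The aquaporin AQP, a membrane water channel, had 472, 559 and 585 TPM in high-yield libraries and 557, 716 and 688 TPM in low-yield libraries. Each pair was lower in high yield, by −0.24, −0.36 and −0.23 in LaMe, Yangambi and SP540, but the classes overlapped and the fitted difference was −0.28 (SE 0.180). IAA1, an auxin-responsive gene, pointed the other way in all pairs with a difference of 0.28 (SE 0.265), at 5.70, 4.17 and 6.30 TPM in high-yield and 4.27, 3.70 and 4.66 TPM in low-yield libraries.

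Genes of translation did not all differ in one direction. The translation elongation factor EF1 had 390.1, 522 and 557 TPM in high-yield libraries and 692, 373 and 370.2 TPM in low-yield libraries in its row NM_001303577.1, with a difference of 0.08 (SE 0.291). Its row XM_010924230.3 had 37.5, 45.7 and 62.8 TPM in high-yield libraries and 63.6, 55.3 and 111 TPM in low-yield libraries, with a difference of −0.61 (SE 0.289). The first row was lower in high yield in LaMe alone, and the second was lower in all 3 pairs. RPL27, a protein of the large ribosomal subunit, had 133, 123 and 109 TPM in high-yield libraries and 146, 105 and 142 TPM in low-yield libraries in its main row.

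Of the 25 rows, 9 were lower in high yield in LaMe and SP540 and higher in Yangambi, a tally made after the values were known. They were rows of CHAC1, HCS, sbp1, EF1B, RPL27, SAG, PEX13, ACT1 and GPAT. In LaMe the differences of ACT1 and PEX13 were only −0.0014 and −0.024. The share of all tested rows with this pattern was not counted, so the tally shows no trait particular to these genes. CHAC1 had 455, 585 and 556 TPM in high-yield libraries and 770.0, 440.0 and 874 TPM in low-yield libraries. HCS had 277, 311 and 303 TPM in high-yield libraries and 420.3, 259 and 418 TPM in low-yield libraries. In 8 of the 9 rows, all but that of GPAT, the low-yield Yangambi library was the lowest of the 6. The choice of rows favours this, since low yield lay below high yield in Yangambi alone. How often that library was the lowest over all tested rows was not counted either. The fitted differences of CHAC1, HCS, sbp1 and EF1B lay between −0.18 for sbp1 and −0.33 for CHAC1.

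The remaining genes described had fitted differences near 0, in part from pairs of opposite sign. Actin ACT1, a cytoskeleton gene, had 24.9, 38.1 and 26.6 TPM in high-yield libraries and 24.9, 24.5 and 35.4 TPM in low-yield libraries, with a fitted difference of 0.07 (SE 0.197). Its pairs differed by 0.61 in Yangambi and −0.40 in SP540. ADPRF, an ADP-ribosylation factor of vesicle traffic, had 103, 165 and 175 TPM in high-yield libraries and 112, 165 and 172 TPM in low-yield libraries. PEX13 had 309, 329 and 351 TPM in high-yield libraries and 314, 308 and 363 TPM in low-yield libraries, with the smallest SE of these genes, 0.115, on a difference of 0.01. An interval of that width still leaves room for small differences in either direction.

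**Figure D4:**
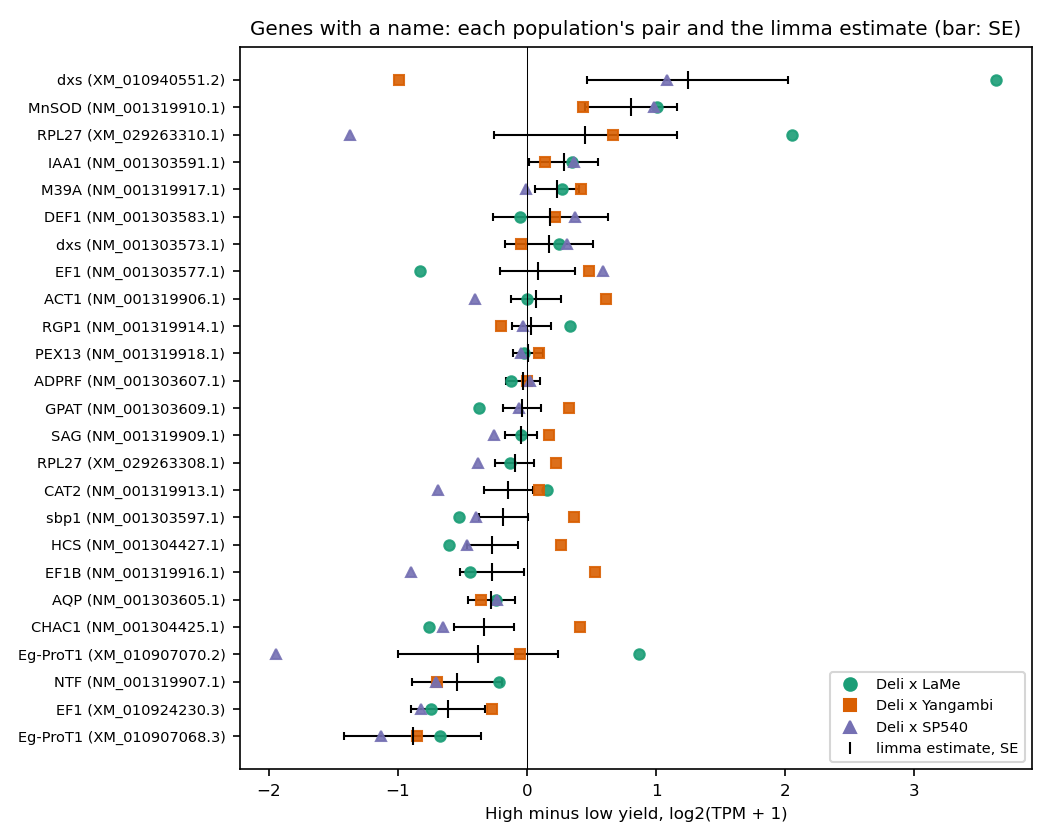
High minus low yield on the log2(TPM + 1) scale (horizontal axis) for the 25 tested rows of genes with a name; coloured markers are the 3 population pairs, and black ticks with bars are the limma estimate and its SE. The 25 estimates lie between −0.89 for a row of Eg-ProT1 and 1.24 for a row of dxs, and the pairs lie on both sides of 0 in most rows.

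Differences of at least 2-fold were also counted within a single pair. By construction, at least as many rows meet this in 1 pair as in all 3 pairs. With 1 library a class, such differences have no replicate check. In LaMe 2959 rows (9.68%) were at least 2-fold higher and 2490 (8.14%) at least 2-fold lower in the high-yield library. In Yangambi the counts were 2728 higher (8.92%) and 3101 lower (10.1%), and in SP540 2641 higher (8.64%) and 2632 lower (8.61%). The median size of a difference was 0.35, 0.36 and 0.35 on the log2 scale in LaMe, Yangambi and SP540, so typical differences were of a like size in the 3 pairs.

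Most of these pair differences did not recur in the same direction. Of all rows tested, 22.8% passed 2-fold in exactly 1 pair, 3.18% in 2 or more pairs always higher, 3.14% in 2 or more pairs always lower, and 7.97% in 2 or more pairs with both directions. The remaining 62.9% passed it in no pair. Among rows that averaged 5 TPM or more, 8.34, 9.27 and 7.95% passed 2-fold in the LaMe, Yangambi and SP540 pairs, against 17.8, 19.1 and 17.2% of all rows.

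A stricter look, set after the values were seen, took rows with at least 20 TPM in one library of a pair and under 1 TPM in the other. There were 103 such rows (0.337%), and 96 of them met this in exactly 1 pair. In LaMe 14 rows were present in the high-yield and 10 in the low-yield library, in Yangambi 11 and 36, and in SP540 19 and 20. Only 3 rows met it in 2 pairs in the same direction, 4 met it in 2 pairs in opposite directions, and none in all 3.

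The largest differences of each pair were mostly of this kind. In Yangambi, XM_029261686.1 had 117, 0 and 138 TPM in high-yield libraries and 145, 126 and 147 TPM in low-yield libraries, and XM_010913034.1 had 165, 0.628 and 181 TPM in high-yield libraries and 203, 151 and 196 TPM in low-yield libraries. For both rows the medium-yield Yangambi library was also under 1 TPM, so that in this cross only the low-yield library reached 1 TPM. XM_010912317.3 had 88.9 TPM in the low-yield Yangambi library and was listed at 0 in the high-yield and medium-yield Yangambi libraries. It was under 2 TPM in all LaMe libraries, and had 136 TPM in the high-yield and 157 TPM in the low-yield SP540 library.

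In SP540 the widest gap belonged to XM_010934760.3 of LOC105053547, with 171, 0 and 0 TPM in high-yield libraries and 198, 0 and 1168 TPM in low-yield libraries. It was listed at 0 in all 3 Yangambi libraries, and the medium-yield SP540 library had 903 TPM. XM_029264886.1 had 52.4, 37.7 and 78.4 TPM in high-yield libraries and 46.1, 29.7 and 0.00176 TPM in low-yield libraries, so the low-yield SP540 library stood alone. XM_019848973.2 had 45.3, 127 and 159 TPM in high-yield libraries and 2.84, 33.0 and 1.14 TPM in low-yield libraries, and its classes did not overlap.

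XM_010936027.3 recurred in LaMe and SP540. It had 66.8, 73.7 and 71.1 TPM in high-yield libraries and 0.343, 91.6 and 0.161 TPM in low-yield libraries, with pair differences of 5.66 in LaMe, −0.31 in Yangambi and 5.96 in SP540. The medium-yield libraries had 0.648, 93.8 and 46.4 TPM. In LaMe, XM_019851746.2 had 0.924, 0.904 and 1.23 TPM in high-yield libraries and 65.9, 0.345 and 0.802 TPM in low-yield libraries, and the medium-yield LaMe library had 29.1 TPM, so medium-yield and low-yield LaMe stood apart from the other 7 libraries.

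Other rows of the kind differed between crosses in which class was high. LOC105035098, in its row XM_010910509.3, had 42.2, 0.00989 and 31.4 TPM in high-yield libraries and 0, 10.8 and 14.5 TPM in low-yield libraries, so LaMe and Yangambi pointed in opposite directions. LOC105041360, in its row XM_010918304.3, had 18.0, 12.1 and 0.0119 TPM in high-yield libraries and 0.00595, 12.8 and 94.1 TPM in low-yield libraries, with pair differences of 4.24 in LaMe and −6.55 in SP540. XM_010938155.3 was listed at 0 in the low-yield Yangambi library and lay between 44.8 and 59 TPM in the other high-yield and low-yield libraries. In this row 1 low-yield library carried the whole difference. In XM_029264886.1 the SP540 pair differed by 6.31, beside 0.18 in LaMe and 0.33 in Yangambi.

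**Figure D5:**
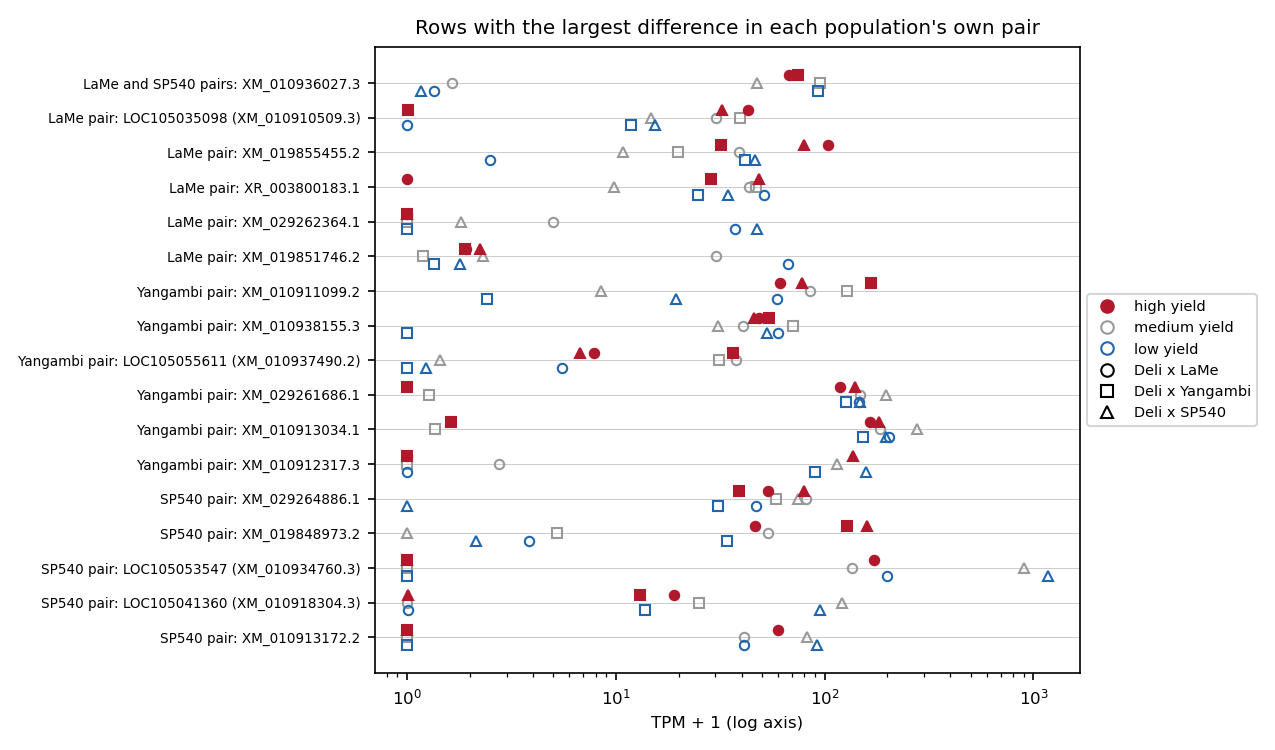
TPM + 1 on a log axis (horizontal) in all 9 libraries for the rows with the largest difference within the LaMe, Yangambi or SP540 pair; filled red markers are high-yield, open grey medium-yield and open blue low-yield libraries, with circles for LaMe, squares for Yangambi and triangles for SP540. XM_010936027.3 lies between 66.8 and 73.7 TPM in high yield, whereas in low yield Yangambi has 91.6 TPM and the other crosses lie near 0.

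A pair of rows with consecutive accessions, XM_029262364.1 and XM_029262365.1, was singled out after its values were seen. XM_029262364.1 was near 0 in all high-yield libraries and had 36.4, near 0 and 46.2 TPM in the low-yield LaMe, Yangambi and SP540 libraries. XM_029262365.1 had 35.8, 75.6 and 38.5 TPM in high-yield libraries and 1.87, 64.4 and 2.23 TPM in low-yield libraries. The rows mirrored each other, and their sum was 35.8, 75.6 and 38.5 TPM in high-yield libraries and 38.3, 64.4 and 48.5 TPM in low-yield libraries, with classes that overlapped. In the fit of all 9 libraries XM_029262365.1 had a difference of 2.51 (SE 0.766, limma, adjusted p = 0.987) and was not called. The low-yield Yangambi library, at 64.4 TPM, lay far above the other low-yield libraries. With that library left out, XM_029262365.1 was the 1 row called over all rows tested (log2 difference 3.72, SE 0.184, limma, adjusted p = 0.0298). No row was called when all Yangambi libraries were left out instead (lowest limma adjusted p 0.252). Whether XM_029262364.1 and XM_029262365.1 belong to 1 gene is not given in the gene table used, and how reads were divided between them was not tested.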

How the data were processed

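Libraries of 9 oil palm leaf samples were made with a TruSeq mRNA kit from RNA of 500 mg of tissue, per the labels' protocols. The authors deposited TPM values for 51490 RefSeq transcript rows. The submitters' processing notes name fastp, kallisto and DESeq2, while neither the transcript set nor the build is given in the sources used here. Rows were paired with genes of the RefSeq table for assembly EG11 by accession without version (31716 rows, 61.6%; 1009 with version). That table was used for names only.

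Rows that reached 1 TPM in 3 or more libraries were tested as log2(TPM + 1) with limma 3.58.1 in R 4.3.3 (trended, robust prior with statmod 1.5.0; 4 residual and 3.01 to 3.10 prior degrees of freedom). Population and yield class were additive terms over all 9 libraries. Thus the pairs by population, which the labels give by cross, entered as a block. Two-sided p-values were adjusted over the 30576 tested rows after Benjamini and Hochberg, and the threshold was 0.05. With 1 library per combination no interaction could be fitted. Compositions were compared by exact permutation within populations, over 8 arrangements.

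Named rows were the 10 with a gene and 2 without in each direction with the smallest unadjusted p, a mean of at least 5 TPM over the 6 libraries and the same direction in 3 populations, counting each gene once. In each pair, 3 rows per direction were named by size. Members, lists and tests were chosen with earlier results of these data known. Gene lists by product could not be matched, since no product descriptions were at hand. Alternatives were other pseudocounts, filters, scaling, prior, gene sums, 6 libraries, no block, and libraries or populations left out. Depth is unknown, so no counting interval is given.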

Additional observations from a re-analysis of the deposited data

Results flagged for a closer look

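In 5 tested rows of genes with a name the pairs of libraries pointed in opposite directions, with at least 1 pair 0.5 or more above 0 and 1 pair 0.5 or more below 0. The values are the gap between the highest and the lowest pair difference, high minus low yield on the log2(TPM + 1) scale. With 1 library per yield class and population the difference between populations was not tested.

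The gap was 4.62 in the dxs row XM_010940551.2, between 3.63 in LaMe and −0.99 in Yangambi, where the low-yield LaMe library had 0.0547 TPM. It was 3.42 in the RPL27 row XM_029263310.1, between 2.05 in LaMe and −1.37 in SP540, on values that did not pass 5.82 TPM. The Eg-ProT1 row XM_010907070.2 had a gap of 2.81, between 0.86 in LaMe and −1.94 in SP540. EF1B, an elongation factor gene, had a gap of 1.42, between 0.53 in Yangambi and −0.90 in SP540. The EF1 row NM_001303577.1 had a gap of 1.41, between 0.59 in SP540 and −0.83 in LaMe.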

How the results depend on the processing

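No alternative called a row except leaving out the low-yield Yangambi library, which called 1, XM_029262365.1 (3.72, SE 0.184, limma adjusted p = 0.0298). The named rows' adjusted p lay between 0.618 and 1. Rows at an unadjusted p under 0.05 numbered 1424, against 817 of 18354 with at least 5 TPM required and 1926 of 45284 without a filter. Leaving out libraries or populations gave 1128 to 1928. Without the replicate block, that is without pairing by population, 1058 rows had an unadjusted p under 0.05 and 0 were called (lowest adjusted p 0.479). Rows without overlap numbered 2452 of 30576 (8.02%), against 1435 of 18354 at 5 TPM, where fewer rows were tested. They numbered 4849 to 10224 of 30576 with fewer libraries, which raises the count by construction.

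With gene sums the difference changed sign for XM_029266498.1 (−0.070), NM_001303577.1 (−0.017), XM_029263310.1 (−0.084), XM_010942238.3 (0.12), XM_010930892.3 (0.15), XM_010906889.3 (0.20), XM_029265867.1 (0.036), XM_010909708.3 (0.079), XM_010923190.3 (−0.17) and the Yangambi pair of XM_010937490.2 (−0.21), since other rows of the gene enter. With scaling it did for PEX13 (−0.031) and RGP1 (−0.0034); the cause was not tested. Leaving out libraries gave ranges across 0 for EF1 NM_001303577.1 (−0.21 to 0.54), DEF1 (−0.074 to 0.53), ADPRF (−0.11 to 0.062), GPAT (−0.22 to 0.13), ACT1 (−0.20 to 0.31), SAG (−0.15 to 0.069), CAT2 (−0.31 to 0.13), RGP1 (−0.12 to 0.15), EF1B (−0.67 to 0.042), PEX13 (−0.058 to 0.075), Eg-ProT1 XM_010907070.2 (−1.04 to 0.40), RPL27 XM_029263308.1 (−0.25 to 0.067) and XM_029263310.1 (−0.35 to 1.36).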
